A study of Homo sapiens with 24 samples.

Results

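Integrins, the laminins they bind and the proteins that join them to the actin cytoskeleton were compared in CD18/HPAF cells with and without ISOX, as 43 genes taken by name from the deposited table: 12 integrin chains, 10 chains of the basement membrane, 3 genes of the hemidesmosome, 3 other matrix receptors and 15 adhesion adaptors. The 43 were among 25991 gene names, and they filled 44 of 30276 rows, because ITGAE had 2 rows. CD18/HPAF is an established, well differentiated human pancreatic adenocarcinoma line, grown in DMEM with serum, and ISOX (CAY10603) is an inhibitor directed at the deacetylase HDAC6. RNA of cells given 1 µM ISOX for 48 h (12 samples) was compared with RNA of untreated cells (12 samples) to learn how the compound acts, and the labels give no vehicle for the untreated cells. Sample titles carry a first number with 3 values and a second with 4, and neither is explained, so that separate cultures cannot be told from repeat runs of 1 library. All samples are of 1 cell line in culture.

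Integrins are receptors of 1 alpha and 1 beta chain that hold a cell to its matrix. Inside the cell, talin and the kindlins switch them on, and ILK, paxillin, vinculin and zyxin link them to actin in focal adhesions. In epithelia a laminin that contains the products of LAMA3 and LAMB3 is the main anchor of the basement membrane. It is bound by the integrin of ITGA6 and ITGB4 in hemidesmosomes, which plectin and dystonin tie to keratin filaments, and by the integrin of ITGA3 and ITGB1 elsewhere on the basal surface. Pancreatic ductal cancers are known for high levels of laminins and of these receptors.

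The deposited table gives 1 pooled FPKM (a density of sequenced fragments, corrected for transcript length and for the depth of the library) per row and group, with no value per sample. No spread between replicates, depth or interval could therefore be had, no test was made, and all differences below are descriptions of these pooled values. A row was read where the mean of both groups was at least 1 FPKM, which 42 of the 44 adhesion rows and 11672 named rows in all passed, and a row was counted as higher or lower at a ratio of at least 1.5-fold. The sum of all FPKM was 1.31 times as large in the ISOX group, and the median log2 ratio of ISOX over untreated over the 11672 rows was 0.21, or 1.16-fold, so that ratios are also given relative to this median. Epithelial markers were high, from 113 FPKM for CDH1 to 2970 FPKM for KRT19 in untreated cells, and their sum was 6442 and 7850 FPKM. Of 4 endothelial markers none reached 1 FPKM in either group. Of 7 fibroblast markers COL1A1 and LUM did, with the list at a sum of 15.5 and 40.1 FPKM and PDGFRA at 0, and of 5 immune markers CD68 and CD14 did, with a sum of 22.8 and 33.3 FPKM and CD3E at 0. LUM, a matrix proteoglycan gene, made up most of the fibroblast sum at 12.9 and 36.8 FPKM, and the part of other cells in the results was not tested.

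Of the 8 adhesion rows that were higher with ISOX, 5 belonged to laminin chains or to ITGA3 and ITGA6, whose products bind laminin. By class, 3 of 6 laminin rows, 4 of 8 alpha chain rows and 0 of 5 beta chain rows were higher. ITGB1 and ITGB4, beta chains of the laminin receptors, were thus not among them. The proteoglycan genes AGRN and HSPG2, the hemidesmosome genes COL17A1, PLEC and DST, and CD44, CD47 and DAG1 lay below the median of all genes. The adaptors lay on both sides of it. Counted by row, 8 of 42 (19.0%) were at least 1.5-fold higher, beside 12.3% of all rows, and these were LAMA3, LAMB3, LAMC1, ITGA3, ITGA6, ITGA5, FERMT2 and the second row of ITGAE. None was at least 1.5-fold lower, beside 2.04% of all rows. At 2-fold, 3 rows were higher (7.14%, beside 2.93% of all rows). Measured from the median of all rows, 5 were at least 1.5-fold higher (11.9%, beside 5.44%) and 1, TNS3, was lower (2.38%, beside 4.60%). LAMC1, ITGA6 and ITGA5 were no longer past the threshold on this scale, and with both groups scaled to equal FPKM totals only LAMA3, FERMT2 and the second row of ITGAE were. With so few rows these shares differ from the background by a handful of genes. The median log2 ratio of the 42 rows was 0.25, close to the 0.21 of all rows, with 22 rows above that median and 20 below. By class it was 0.40 in 13 integrin rows, 0.18 in 8 basement membrane rows and 0.24 in 15 adaptor rows. Only the integrin median stayed above 0 under each scaling tried, at 0.19 from the median of all rows and 0.01 at equal FPKM totals. On the same scalings the basement membrane median was −0.04 and −0.21, and the adaptor median was 0.03 and −0.15.

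**Figure D1:**
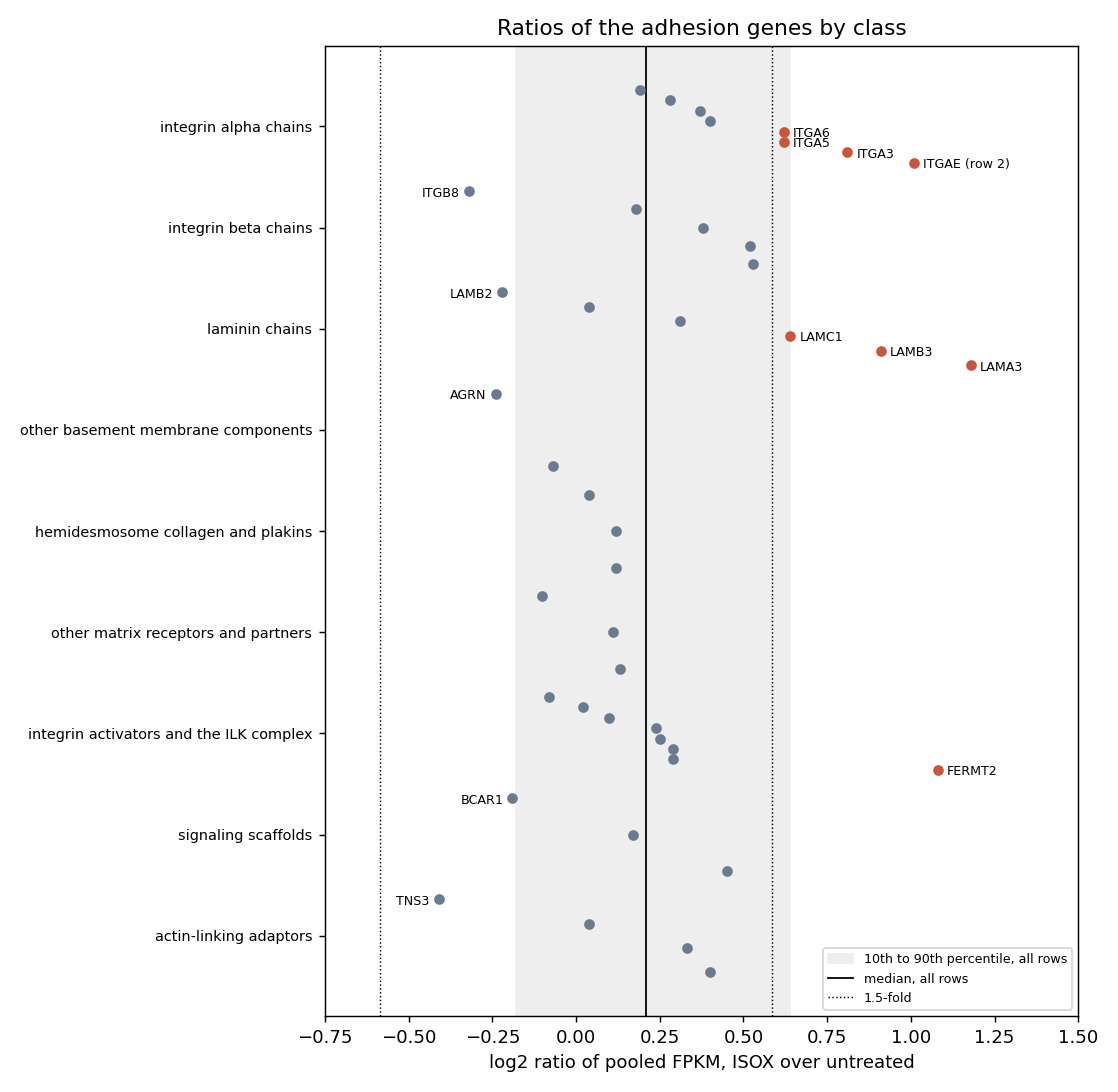
Log2 ratio of pooled FPKM, ISOX over untreated, for the 42 adhesion rows with a mean of at least 1 FPKM, by class (1 point per row, no error available). The solid line is the median of all 11672 rows at 0.21, the gray band their 10th to 90th percentile (−0.18 to 0.64) and the dotted lines a 1.5-fold ratio; red points are at least 1.5-fold higher, with LAMA3 at 1.18 and FERMT2 at 1.08 farthest to the right and TNS3 at −0.41 farthest to the left.

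Among the laminins, LAMA3 and LAMB3 of the epithelial laminin were higher with ISOX, while LAMA5, LAMB1 and LAMB2 of other laminins did not pass 1.5-fold. LAMA3, an alpha chain gene (hg38, chromosome 18, 23689443 to 23955065), was at 7.44 FPKM in untreated cells and 16.8 FPKM with ISOX. Its log2 ratio of 1.18 exceeded that of 98.3% of all rows, a rank that does not depend on how the groups are scaled to each other. LAMB3, a beta chain gene on chromosome 1 from 209614873 to 209652475, was at 45.5 and 85.7 FPKM (log2 ratio 0.91, above 96.1% of rows). Both genes thus stood in the upper tail of all ratios. Per length, LAMA3 was the less abundant of them in both groups, at 0.163 of LAMB3 in untreated cells and at 0.196 with ISOX.

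The laminin chains shared by most tissues differed less. LAMA5, the alpha chain of the laminins common in adult basement membranes, was at 51.6 and 53.0 FPKM (log2 ratio 0.04), in an interval that also holds ADRM1, so that reads of that gene may be counted with it. LAMB1 and LAMB2, alternative beta chains, went opposite ways in their FPKM: LAMB1 was at 14.0 and 17.4 FPKM (0.31 on the log2 scale), with DLD in its interval. LAMB2 was at 36.3 and 31.1 FPKM (log2 ratio −0.22), below 91.7% of rows. LAMC1, the gamma chain that pairs with these, was at 20.2 and 31.3 FPKM, or 1.55-fold higher, just past the threshold. In these pooled values the mix of chains therefore differed between the groups, and ratios within a group do not depend on the scaling. The ratio of LAMA3 to LAMA5 was 0.144 in untreated cells and 0.317 with ISOX, a 2.20-fold difference. The ratio of LAMB3 to LAMB2 was 1.26 and 2.75, and that of LAMB3 to LAMB1 was 3.25 and 4.93. Of the summed FPKM of the 6 laminin genes listed, LAMB3 made up 26% in untreated cells and 36.4% with ISOX, and LAMA5 29.5% and 22.5%, so that the leading chain was LAMA5 in untreated and LAMB3 in treated cells.

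**Figure D2:**
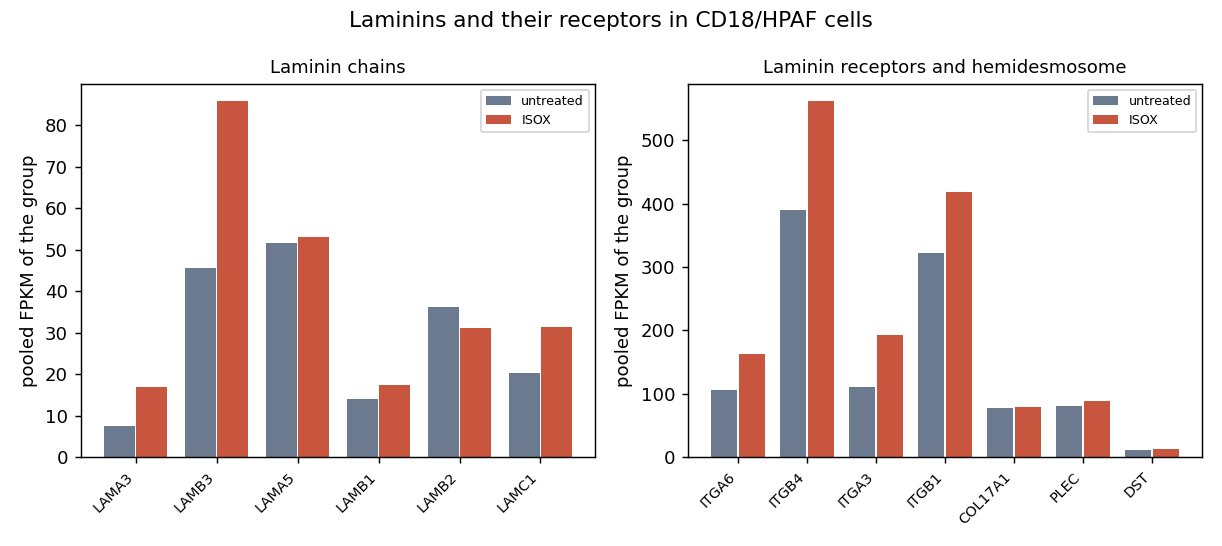
Pooled FPKM of laminin chains (left) and of laminin receptors and hemidesmosome genes (right) in untreated (gray) and ISOX-treated (red) CD18/HPAF cells; each bar is 1 pooled value without error. LAMA3 and LAMB3 are higher with ISOX (16.8 against 7.44 and 85.7 against 45.5 FPKM) while LAMA5 is nearly level, and ITGB4 is the highest gene shown, at 390 and 561 FPKM.

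Since LAMA3 and LAMB3 were both higher with ISOX and LAMA5 was nearly level, the sequence around their annotated starts is shown, from RefSeq on GRCh38.p14, each from 250 bases before to 50 bases after a start and written along the gene's strand. Capitals mark TGANTCA, the element bound by AP-1 (FOS and JUN family) factors, searched after the values were seen; it reads as the same pattern on both strands. The LAMA3 window is chr18:23872770-23873069 (plus strand), 1 LAMB3 window is chr1:209651325-209651624 (minus strand), and the LAMA5 window is chr20:62367263-62367562 (minus strand).
LAMA3: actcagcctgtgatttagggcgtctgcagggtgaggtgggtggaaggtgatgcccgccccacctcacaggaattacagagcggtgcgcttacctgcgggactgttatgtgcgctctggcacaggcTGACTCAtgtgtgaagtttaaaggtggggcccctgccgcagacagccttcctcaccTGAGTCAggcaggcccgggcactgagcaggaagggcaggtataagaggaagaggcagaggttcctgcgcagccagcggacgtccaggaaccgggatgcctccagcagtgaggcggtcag
LAMB3: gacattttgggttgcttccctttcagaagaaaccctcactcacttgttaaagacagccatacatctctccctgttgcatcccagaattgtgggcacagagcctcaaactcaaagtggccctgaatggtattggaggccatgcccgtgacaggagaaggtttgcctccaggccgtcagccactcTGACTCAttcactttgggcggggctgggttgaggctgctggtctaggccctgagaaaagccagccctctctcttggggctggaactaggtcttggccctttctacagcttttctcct
LAMA5: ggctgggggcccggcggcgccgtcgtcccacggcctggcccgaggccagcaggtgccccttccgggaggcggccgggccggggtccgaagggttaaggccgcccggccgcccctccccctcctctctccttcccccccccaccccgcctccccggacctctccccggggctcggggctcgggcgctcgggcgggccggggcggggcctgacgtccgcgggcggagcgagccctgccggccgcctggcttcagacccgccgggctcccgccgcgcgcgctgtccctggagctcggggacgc
The LAMA3 window held 2 matches, TGACTCA beginning 125 bases and TGAGTCA beginning 69 bases before the start in that window. It was the only window of this gene and lies inside the interval of its row, which begins upstream at 23689443. The sequence at that upstream end was not searched. This LAMB3 window held 1 match, TGACTCA beginning 67 bases before the start, and the other 2 LAMB3 windows in the table held none. No match was in the LAMA5 window, whose GC content was 82.7%, beside 61.7% for LAMA3 and 53.7% for LAMB3. Of all 35116 windows of this length, 7.71% held a match, and of 57 windows of the adhesion genes 6 did (10.5%). Windows were found for 35 of the 43 genes, and ITGA3, a higher row, was among those without a window. Besides LAMA3 and LAMB3, matches lay in windows of ITGA5, a higher row, and of BCAR1, DST and LIMS1. BCAR1, DST and LIMS1 did not pass 1.5-fold (log2 ratios −0.19, 0.12 and 0.25). The windows of LAMC1, ITGA6, FERMT2 and ITGAE, each with a row counted as higher, held no match. The genes shown were chosen for their values, and the LAMB3 window was chosen among the windows of that gene because it held a match. The windows shown are therefore no sample of the promoters, and the match in the LAMB3 window was fixed by this choice. A match describes letters and shows no binding, and which start is used in these cells was not measured.

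None of the other basement membrane components had a higher value with ISOX. AGRN, which encodes the proteoglycan agrin, was the most abundant of them at 93.3 and 79.0 FPKM (log2 ratio −0.24), below 92.2% of all rows. HSPG2, the gene of the proteoglycan perlecan, was at 40.8 and 38.7 FPKM (log2 ratio −0.07), with LDLRAD2 in its interval. These proteoglycans lay below the median of all rows. Collagen IV, the network former of basement membranes, was scarcely seen. COL4A1 was listed at 0 in both groups, which can be a failed estimate, and COL4A2 at 0.310 and 0.253 FPKM, so that both missed the minimum of 1 FPKM.

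ITGA3 and ITGA6, whose products bind laminin, were the most abundant of the 7 alpha chains and were higher with ISOX; ITGA6 was so only without rescaling, and ITGA3 also from the median of all rows but not at equal totals. ITGA3, on chromosome 17 from 50055758 to 50091113, was at 110 FPKM in untreated cells and 193 FPKM with ISOX (1.75-fold, log2 ratio 0.81, above 94.7% of rows). ITGA6, on chromosome 2 from 172427586 to 172506453, was at 106 and 163 FPKM (1.53-fold, log2 ratio 0.62). Together they held most of the alpha chain signal: of the summed FPKM of the 7 alpha genes, ITGA3 made up 38.2% in untreated cells and 43.3% with ISOX. ITGA6 made up 36.8% and 36.4%. The whole sum was 288 and 447 FPKM, 0.63 higher on the log2 scale with ISOX.

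The other alpha chains were at lower levels. The collagen receptor genes ITGA1 and ITGA2 differed little from the median of all rows: ITGA2 was at 26.1 and 29.8 FPKM (log2 ratio 0.19). ITGA1 was at 15.8 and 20.5 FPKM (0.37), in a row that it shares with PELO, so that the reads of both genes are joined. ITGAV, whose product pairs with several beta chains to bind fibronectin, vitronectin and latent TGF-beta, was at 21.8 and 28.7 FPKM (0.40). ITGA5, the classical fibronectin receptor chain, was low, at 2.77 and 4.27 FPKM (1.54-fold), and its row spans 119930 bases that also hold GPR84, GTSF1 and ZNF385A. ITGAE, whose product binds E-cadherin and is best known from T cells within epithelia, had 2 rows over the same interval, at 4.53 and 5.51 FPKM and at 0.857 and 1.72 FPKM. This interval also covers HASPIN, and what separates the rows is not stated. By its row number the second row stands with plus-strand genes of chromosome 17 such as ITGA3 and ITGB4, while ITGAE lies on the minus strand. Whether the second row counts ITGAE at all was not tested, so that its 2.01-fold ratio is uncertain.

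None of the 5 beta chains among the 43 genes passed 1.5-fold, and their median log2 ratio was 0.38, beside 0.51 in the alpha rows. ITGB4, the beta chain of hemidesmosomes on chromosome 17 from 75721436 to 75757818, was the highest gene of all 43, at 390 and 561 FPKM (1.44-fold, log2 ratio 0.52), with GALK1 in its interval. ITGB1, the partner of most alpha chains, followed at 322 and 418 FPKM (log2 ratio 0.38). Together these beta genes made up nearly all of the beta sum, ITGB4 with 51.8% in untreated cells and 54.3% with ISOX and ITGB1 with 42.7% and 40.4%. ITGB6, an epithelial chain that with ITGAV activates latent TGF-beta, was at 25.9 and 37.5 FPKM (1.45-fold), just short of the threshold. ITGB5, another ITGAV partner, was at 12.6 and 14.3 FPKM (log2 ratio 0.18). ITGB8, which also pairs with ITGAV, was the only 1 of the 12 integrin genes with a lower value, at 3.20 and 2.56 FPKM (log2 ratio −0.32, below 94.5% of rows).
Of 5 ratios of partner chains, 4 differed by less than 1.5-fold between the groups. ITGA6 was at 0.272 of ITGB4 in untreated cells and 0.290 with ISOX, a 1.06-fold difference. ITGB6 was at 1.19 and 1.31 times ITGAV, and ITGB5 at 0.579 and 0.497 times. The exception was ITGB8, at 0.147 of ITGAV in untreated cells and 0.0889 with ISOX, 0.606 times the untreated ratio. ITGA3 was at 0.343 and 0.462 of ITGB1, a 1.35-fold difference. ITGA3 was also at 4.22 and 6.48 times the collagen receptor gene ITGA2, a 1.54-fold difference. ITGA6, whose product also binds laminin, made up 36.8% and 36.4% of the alpha sum. Binding to laminin was not measured.

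**Figure D3:**
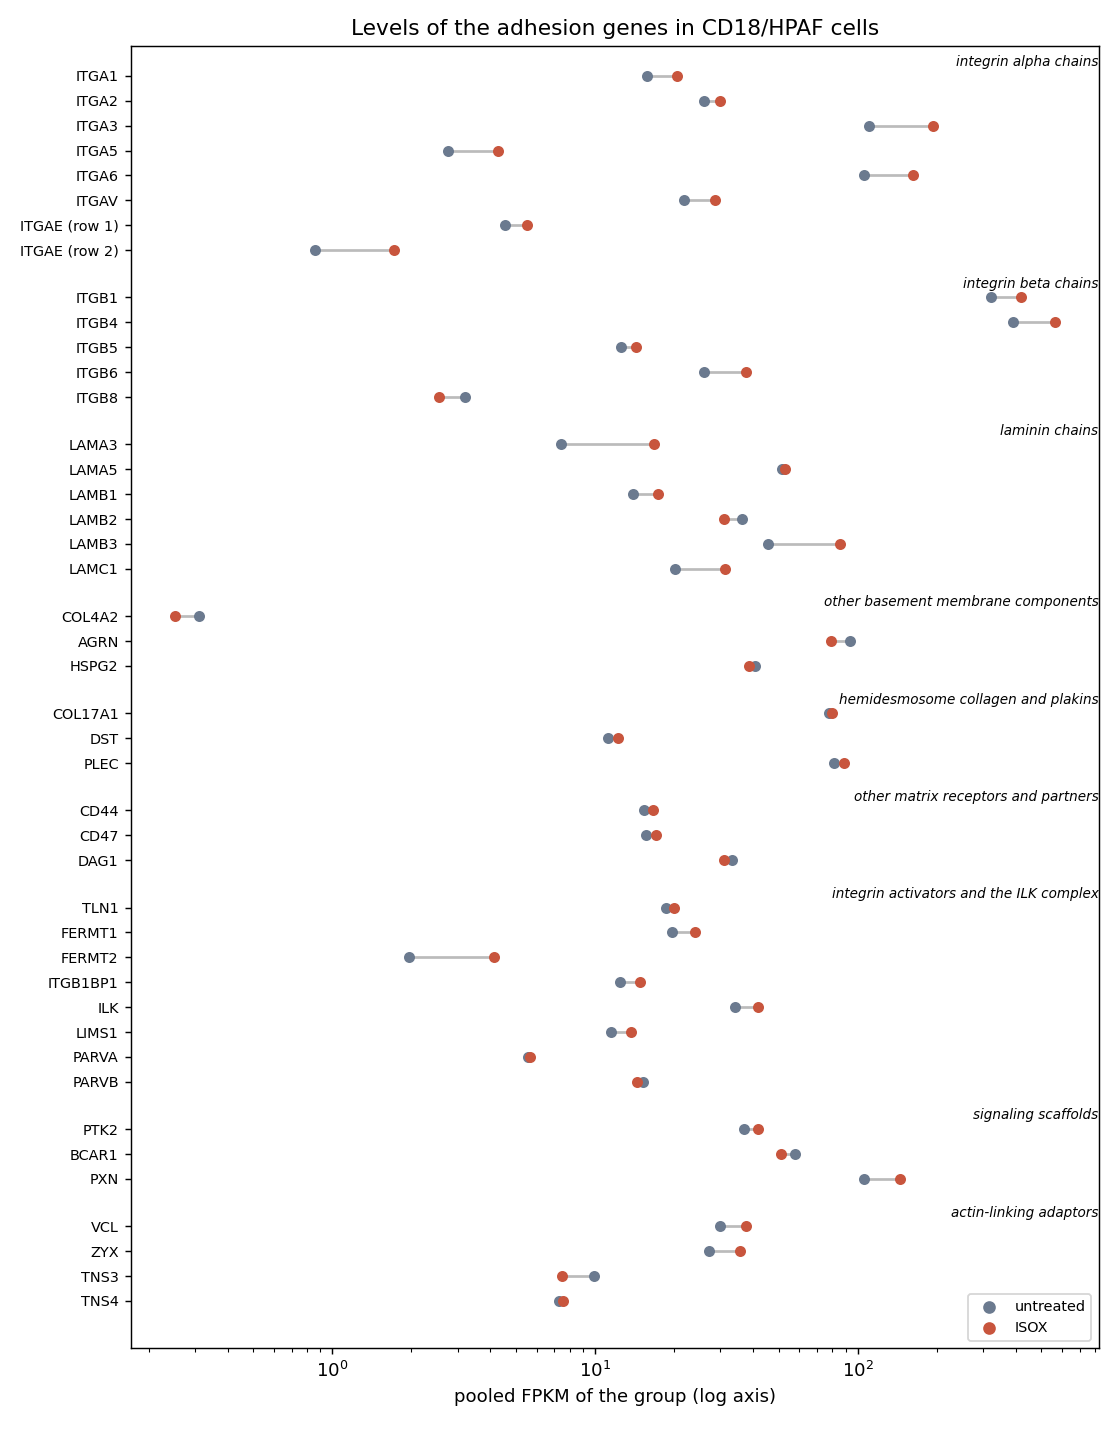
Pooled FPKM (log axis) of the adhesion genes in untreated (gray) and ISOX-treated (red) cells, by class, 1 pooled value per point without error. COL4A1, at 0 in both groups, cannot be drawn on this axis. ITGB4 and ITGB1 lie farthest right (390 to 561 and 322 to 418 FPKM), and for most adaptors the points of both groups nearly touch.

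Apart from the integrin genes ITGA6 and ITGB4, the genes of hemidesmosome anchors were nearly level. COL17A1, the transmembrane collagen that binds the epithelial laminin, was at 77.9 and 79.9 FPKM (log2 ratio 0.04). PLEC, the gene of plectin, was at 81.3 and 88.6 FPKM (0.12), and DST, the gene of dystonin, at 11.2 and 12.2 FPKM (0.12). All 3 lay below the median of all rows. ITGB4, itself short of 1.5-fold, was at 5.01 times COL17A1 in untreated cells and 7.03 times with ISOX (1.40-fold), and at 4.80 and 6.33 times PLEC (1.32-fold). Other matrix receptors were similarly level. CD44, the hyaluronan receptor gene, was at 15.4 and 16.6 FPKM (log2 ratio 0.11). CD47, whose product associates with integrins and signals to phagocytes, was at 15.6 and 17.1 FPKM (0.13). DAG1, the gene of the laminin and agrin receptor dystroglycan, was at 33.3 and 31.1 FPKM (−0.10), below 85.2% of rows.

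Of 8 genes that switch integrins on or belong to the ILK complex, only FERMT2 passed 1.5-fold. FERMT2 encodes kindlin-2 and lies on chromosome 14 from 52857271 to 52951097. It was at 1.96 FPKM in untreated cells and 4.13 FPKM with ISOX (2.11-fold, above 97.7% of rows). FERMT1, the epithelial kindlin gene, was far more abundant, at 19.7 and 24.1 FPKM (log2 ratio 0.29). Even so FERMT2 was at 0.0994 of FERMT1 in untreated cells and 0.171 with ISOX. FERMT2, ITGA5, ITGB8 and the second ITGAE row lie between 1 and 5 FPKM. Of all rows at that level, 13.6% were at least 1.5-fold higher and 4.49% lower, beside 12.3% and 2.04% at any level. TLN1, the talin gene, was at 18.7 and 20 FPKM (log2 ratio 0.10), and its interval reaches over CREB3 and GBA2. ITGB1BP1, which encodes a protein that binds the ITGB1 tail and restrains activation, was at 12.5 and 14.8 FPKM (0.24).
ILK, PINCH and parvin form a stable complex on integrin tails, and their genes lay between −0.29 and 0.08 from the median of all rows on the log2 scale. ILK was at 34.1 and 41.7 FPKM (log2 ratio 0.29), with TAF10 in the same interval. LIMS1, the gene of PINCH-1, was at 11.5 and 13.7 FPKM (0.25). The parvin genes PARVA, at 5.58 and 5.67 FPKM, and PARVB, at 15.2 and 14.4 FPKM with SAMM50 in its interval, were both below that median (0.02 and −0.08).

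The signaling scaffolds and actin linkers were spread on both sides of the median of all rows. PXN, the gene of the scaffold paxillin, was the most abundant adaptor, at 106 and 145 FPKM (1.37-fold, log2 ratio 0.45). PTK2, the focal adhesion kinase gene, was at 37.0 and 41.6 FPKM (0.17). BCAR1, the gene of the kinase substrate p130Cas, was at 57.9 and 50.9 FPKM (−0.19), below 90.4% of rows. These partners of 1 signaling module thus did not share a direction. VCL and ZYX, the vinculin and zyxin genes, which strengthen the link to actin under tension, were at 29.8 and 37.6 FPKM (log2 ratio 0.33) and at 27.1 and 35.7 FPKM (0.40), the interval of ZYX also touching EPHA1. The tensins bind integrin tails and actin: TNS3 was at 9.94 and 7.46 FPKM (log2 ratio −0.41), the lowest ratio of the 42 rows and below 96.0% of all rows. TNS4, a short tensin without the actin-binding part, was at 7.32 and 7.53 FPKM (0.04).

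Further genes of the same pathways, from lists of 80 genes, had 7 of 51 rows past the minimum at least 1.5-fold higher (13.7%, near the 12.3% of all rows), none lower and a median log2 ratio of 0.24. Measured from the median of all rows, 3 were higher (5.88%) and 2 lower (3.92%). Among 14 other integrin chains 3 passed the minimum, and ITGB7, a partner of ITGAE, was higher at 2.51 and 4.02 FPKM. ITGA7, a laminin-binding alpha chain, was at 1.62 and 1.98 FPKM (1.23-fold), and ITGB2, the beta chain of leukocytes, at 6.94 and 6.21 FPKM (log2 ratio −0.16). Among 16 other laminin and basement membrane genes 7 passed the minimum and 1 was higher, LAMA4, an alpha chain of vessel walls, which was at 1.62 and 2.99 FPKM. Of those 7, 5 lay above the median of all rows and 2 below. The proteoglycan genes SDC1 and SDC4 lay above it, at 86.8 and 103 FPKM (log2 ratio 0.24) and at 39 and 53.3 FPKM (0.45). Among 50 other focal adhesion genes, 41 rows passed the minimum and 5 were higher. The 4 with the largest ratio were FYN, a SRC family kinase gene, at 1.54 and 4.54 FPKM; PTK2B, the gene of a focal adhesion kinase relative, at 7.44 and 13.0 FPKM; CAV1, the gene of the caveolar coat protein, at 200 and 329 FPKM; and FLNA, the gene of the actin crosslinker filamin A, at 41.4 and 64.9 FPKM. SRC itself was at 10.2 and 9.87 FPKM, and CD151, whose product associates with the laminin-binding integrins, at 80.3 and 95.5 FPKM (log2 ratio 0.25).

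Level and transcript length moved with the ratios of all genes, and their part in these results was not tested. Above 100 FPKM, where ITGA3 and ITGA6 lie, 21.8% of rows were at least 1.5-fold higher with a median log2 ratio of 0.35, while between 20 and 100 FPKM, where LAMB3 and LAMC1 lie, it was 12.5% with 0.26. Between 5 and 20 FPKM 9.52% were higher, and LAMA3 was the only 1 of 15 adhesion rows there. The adhesion genes are long: 26 of 41 rows with a single name lay in the longest quartile of transcripts, where 8.11% of all rows were at least 1.5-fold higher, against 19.7% in the shortest. Centred on genes of like length, a setting chosen after the data were seen, 5 adhesion rows were at least 1.5-fold higher.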

How the data were processed

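RNA of CD18/HPAF cells (12 samples with ISOX, 12 untreated; groups from the sample titles, dose and time from the labels) was sequenced by the authors from TruSeq libraries. Bowtie, TopHat, Cufflinks and Cuffdiff are named for build hg38 in the submitters' notes, and which versions, annotation, strand setting and filters were used is not given in the sources used here. Per row and group the authors deposited 1 FPKM, pooled over the samples, so that depth and replicate spread are unknown and no test, interval or detection floor could be computed. The deposited table also holds the authors' own log2 fold changes, test statistics, p-values and q-values, which were not used.

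From the FPKM values, the log2 ratio of ISOX over untreated was computed without a pseudocount for named rows above 0 in both groups with a mean of at least 1 FPKM; 246 rows with no gene name were left out. Starts count from 0 in the table and from 1 here. The 43 genes, their classes and the further lists were chosen with earlier results of these data known. All 43 are named. Of the further lists, genes past 1.5-fold were named, at most 4 a list by size. SRC, CD151, ITGA7, ITGB2, SDC1, SDC4 and COL4A5 were added after their values were seen. An item of the further lists is not reported here. Of all rows, 599 join several gene names. Neighbours and transcript lengths (longest transcript, known for 95.0% of single-name rows) came from GENCODE release 29. The settings varied were the fold, a pseudocount, the scaling, the minimum and the summary. Python 3.11.15, numpy 2.4.6, pandas 2.3.3 and matplotlib 3.10.9 were used.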

Additional observations from a re-analysis of the deposited data

How the results depend on the processing

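The count of 8 higher adhesion rows was 3 at 2-fold, 6 with 1 FPKM added, 5 when centred on the median of all genes, 3 when both groups were scaled to the same total FPKM, 5 with a minimum of 5 FPKM and 5 when centred by transcript length (chosen after the data were seen). The 3 at equal totals were LAMA3, FERMT2 and the second ITGAE row. The count of 0 lower rows was 1 when centred on the median, 1 when centred by length and 4 at equal totals (ITGB8, LAMB2, AGRN and TNS3). The 10 highest rows held 22.8% of the untreated and 24.8% of the ISOX total.

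The median log2 ratio of all adhesion rows, 0.25, was 0.03 when centred on the median of all genes, −0.14 at equal totals, 0.05 when centred by length, 0.23 with 1 FPKM and 0.24 with 0.1 FPKM added, 0.24 with no minimum, 0.22 with a minimum of 5 FPKM, 0.24 without rows that join names, and 0.27 as a mean. That of the integrins, 0.40, was 0.19, 0.01 and 0.22 under those 3 scalings in turn, 0.38 with 1 FPKM added, 0.39 with a minimum of 5 FPKM, 0.46 without joined rows and 0.43 as a mean. That of the basement membrane chains, 0.18, was −0.04, −0.21 and −0.01 under the scalings, 0.17 with either pseudocount, 0.04 with no minimum and 0.32 as a mean. That of the adaptors, 0.24, was 0.03, −0.15 and 0.05 under the scalings, 0.23 with 1 FPKM added, 0.21 with a minimum of 5 FPKM and 0.20 as a mean. Centring on the median and equal totals shift every ratio alike by construction, and the cause of the other moves was not tested. No paired analysis was possible because the values are pooled over the samples of a group, and for the same reason no replicate could be left out.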
